A study of Glycine max with 6 samples.

Results

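This account is about 7 NAC transcription factor genes of soybean (Glycine max, cultivar Williams 82) whose leaf transcript was higher in drought. They are out of 66184 probe sets with deposited values, 1 for each gene model and called genes here. By the study's account not all gene models are predicted with high confidence. The 7 genes are GmNAC085 (Glyma12g22880), GmNAC006 (Glyma02g07700), GmNAC101 (Glyma13g35550), GmNAC127 (Glyma16g26740), GmNAC102 (Glyma13g35560), GmNAC011 (Glyma02g26480) and GmNAC012 (Glyma02g38710). They were picked by identifier from the 36 NAC genes on the study's lists, and the values that chose them were those of these same arrays, on which all have a higher drought mean. Their differences between treatments are therefore given as a description, with no test.

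The drought group was 3 plants, numbered 11, 12 and 13, left unwatered for 5 days once flowering had begun, when soil moisture was 5%. The well-watered group was 3 plants, numbered 1, 3 and 4, that were watered as usual. All were greenhouse plants grown 3 to a pot, and the third trifoliate leaf below the shoot tip was taken at the R2 stage, full bloom. The 1 array per plant was an Affymetrix Soybean Gene 1.0 ST array, with values on the log2 scale from which each gene's median over the 6 arrays has been taken off. A value of 0 is thus the middle of a gene's own 6 values, and levels of different genes cannot be compared. Where the groups do not overlap, this centring also makes the lowest drought value and the highest well-watered value equal in size and opposite in sign, so that only differences between arrays carry information.

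NAC proteins form one of the large families of plant transcription factors, named after NAM of petunia and ATAF and CUC of Arabidopsis. A conserved domain at the amino end binds DNA and lets the proteins pair, and a variable region at the carboxyl end acts on transcription. In Arabidopsis, ANAC019, ANAC055 and ANAC072 are induced by drought and abscisic acid and their overexpression raises drought tolerance, while other members act in leaf senescence, in the meristem and in the secondary wall. GmNAC085 has been overexpressed in Arabidopsis, where it raised drought tolerance. Roles of the other 6 genes are not given here.

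As picked, the 7 genes made a set of 4 with very large differences and a set of 3 with differences of about 2-fold to 3-fold. GmNAC085, GmNAC006, GmNAC101 and GmNAC127 were 19.6-fold to 26.6-fold higher in drought leaves, while GmNAC012, GmNAC102 and GmNAC011 were 2.09-fold to 3.29-fold higher. The first 4 held ranks 29, 38, 44 and 51 among the rises of all 66184 genes. GmNAC012 ranked 1200, GmNAC102 ranked 2012 and GmNAC011 ranked 3067. In each of the 7 genes all 3 drought values lay above all 3 well-watered values, a separation that 18.6% of all genes showed, while 17.4% were separated the other way. By the criteria used below, an adjusted p under 0.05 and at least 2-fold (limma, Benjamini-Hochberg over 66184 genes), 4.98% of genes were higher and 4.63% were lower in drought. All 7 genes met the criteria for higher, which nothing is read from, since they were picked on this contrast. In leaf tissue, more RNA per cell and more cells that express a gene cannot be told apart.

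GmNAC085 had values of 2.52, 2.43 and 2.00 in drought plants 11, 12 and 13, against -2.00, -2.35 and -2.91 in well-watered plants 1, 3 and 4. Well-watered plant 4 stood lowest, and the nearest drought and well-watered plants were still 4.00 apart on the log2 scale. The log2 fold change was 4.74 ± 0.25 (SE of the limma fit, n = 3 per group). GmNAC006 had values of 2.11, 2.36 and 2.32 in drought plants 11, 12 and 13, against -2.47, -2.11 and -2.25 in well-watered plants 1, 3 and 4. The plants of each treatment lay close together, with an SD of 0.14 in drought and 0.18 in well-watered leaves, and the gap between the groups, 4.22, was the widest of the 7 genes. Its log2 fold change was 4.54 ± 0.17.

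GmNAC101 had values of 2.01, 2.41 and 2.00 in drought plants 11, 12 and 13, against -2.00, -2.28 and -2.50 in well-watered plants 1, 3 and 4. Drought plant 12 stood above the other drought plants, which were nearly equal. The log2 fold change was 4.40 ± 0.20 (SE, n = 3 per group). GmNAC127 had values of 2.20, 1.62 and 2.40 in drought plants 11, 12 and 13, against -1.62, -2.48 and -2.57 in well-watered plants 1, 3 and 4. Drought plant 12 was the lowest and well-watered plant 1 the highest of their groups, so that the groups came nearest there, 3.24 apart. Its log2 fold change was 4.30 ± 0.29, with the largest SE of the 7 genes.

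Of the set with smaller differences, GmNAC012 had values of 0.80, 0.97 and 0.91 in drought plants 11, 12 and 13, against -0.85, -0.81 and -0.80 in well-watered plants 1, 3 and 4. No other gene of the 7 had plants so alike, with an SD of 0.088 in drought and 0.029 in well-watered leaves, and the log2 fold change was 1.72 ± 0.16 (SE, n = 3 per group). GmNAC102 had values of 0.39, 0.91 and 0.58 in drought plants 11, 12 and 13, against -0.79, -0.93 and -0.39 in well-watered plants 1, 3 and 4. Drought plant 11 and well-watered plant 4 came nearest to each other, 0.78 apart, and the log2 fold change was 1.33 ± 0.21. GmNAC011 had values of 0.69, 0.81 and 0.39 in drought plants 11, 12 and 13, against -0.43, -0.46 and -0.39 in well-watered plants 1, 3 and 4. Its well-watered plants were nearly equal, with an SD of 0.037, against 0.22 in drought leaves. Its log2 fold change was 1.06 ± 0.17, just above the 2-fold line, and was 0.97, below that line, without drought plant 12.

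**Figure D1:**
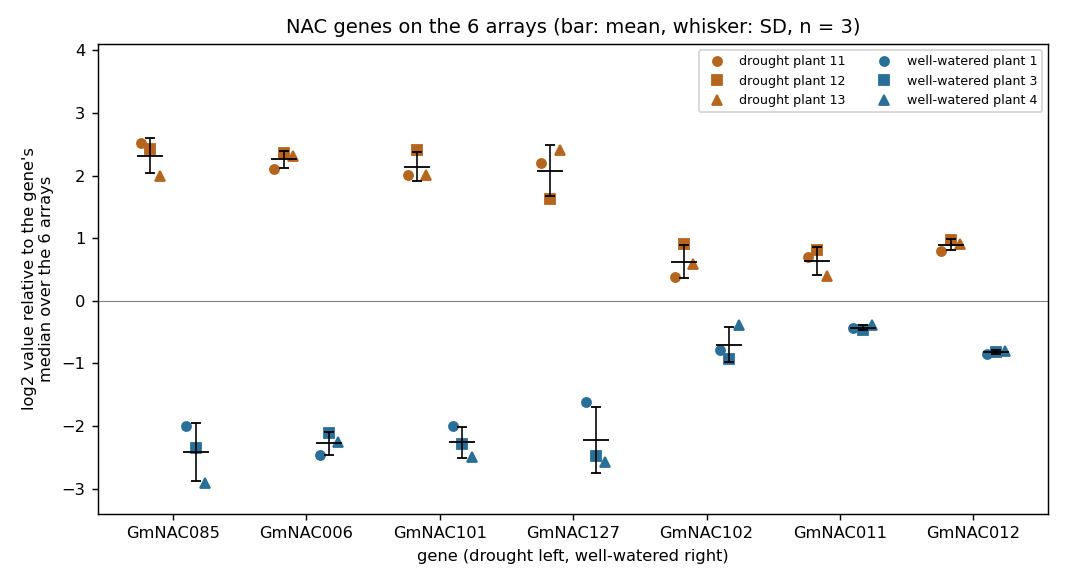
Log2 value of each plant relative to the gene's median over the 6 arrays, for the 7 NAC genes, with drought plants left and well-watered plants right. Bars are means and whiskers SDs (n = 3 per group). GmNAC085, GmNAC006, GmNAC101 and GmNAC127 stand at means of 2.07 to 2.32 in drought against -2.42 to -2.22 in well-watered leaves, and no gene has overlapping groups.

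The distances between neighbours in the order of fold changes are given as a description, since the same values chose and ordered the genes. The difference between 2 genes was taken on each array, and its change between treatments is given with the SE from the spread over plants. The fold change of GmNAC085 exceeded that of GmNAC006 by 0.20 ± 0.39 (log2, SE, 3 plants per group). GmNAC006 exceeded GmNAC101 by 0.14 ± 0.25, and GmNAC101 exceeded GmNAC127 by 0.11 ± 0.41. In each of these 3 pairs the distance was smaller than its SE. The step down from GmNAC127 to GmNAC012 was 2.58 ± 0.42. Below it, GmNAC012 exceeded GmNAC102 by 0.39 ± 0.19 and GmNAC102 exceeded GmNAC011 by 0.27 ± 0.21.

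GmNAC101 and GmNAC102 are consecutive in the identifiers of chromosome 13, which are numbered along the chromosome, and no array gene lies between them. Their transcripts were both higher in drought, but by log2 amounts 3.08 ± 0.29 apart (SE, 3 plants per group). Drought plant 12 was the highest drought plant for both, while well-watered plant 4 was the lowest of its group for GmNAC101 and the highest for GmNAC102. GmNAC085 also has a NAC gene near it, GmNAC084 (Glyma12g22790), which is 8 array genes away on chromosome 12. GmNAC084 had values of 0.83, 1.42 and 1.03 in drought plants 11, 12 and 13, against -0.83, -1.15 and -1.16 in well-watered plants 1, 3 and 4. It stood 2.14 ± 0.20 higher in drought on the log2 scale, and it was itself chosen on these arrays. Within 10 identifiers of the other genes no further NAC gene of the lists was found.

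Other genes around the 7 loci changed about as often as genes in general. The 5 array genes before and the 5 after each NAC gene made 60 neighbours, a group whose values played no part in choosing the 7 genes. In drought leaves 2 of them were higher, which is 3.33%, against 4.98% of all genes, and 3 were lower, which is 5.00%, against 4.63% of all genes. The other 55 were not called, and the median log2 fold change of the 60 was 0.0028, against 0.022 over all genes. Both rises lay next to GmNAC012. Glyma02g38700, the gene just before it, rose by 1.25 ± 0.25 on the log2 scale (limma, adjusted p = 0.00532), and Glyma02g38750, 4 identifiers after it, rose by 2.27 ± 0.18 (adjusted p = 2.12e-05). Glyma02g38700 dropped below 2-fold, at 0.98 on the log2 scale, when well-watered plant 1 was left out, and the methods' t-test did not call it. Falls were found beside GmNAC085, where Glyma12g22930 fell by 2.67 ± 0.25 (adjusted p = 6.26e-05), and beside GmNAC101 and GmNAC102, where Glyma13g35520 fell by 2.20 ± 0.20 (adjusted p = 4.75e-05). The third fall, of 1.40 ± 0.36 in a gene 2 identifiers after GmNAC085 (adjusted p = 0.0213), was lost on leaving out drought plant 12 or 13, or well-watered plant 3 or 4, and with the methods' t-test. The gene descriptions used here covered chromosome 1 only, so the called neighbours are given without names. Around GmNAC006, GmNAC127 and GmNAC011 no neighbour was called, although a gene 2 identifiers after GmNAC011, with a log2 fold change of -0.78, was called lower with array weights, at -1.14, and on leaving out well-watered plant 3, at -1.03.

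**Figure D2:**
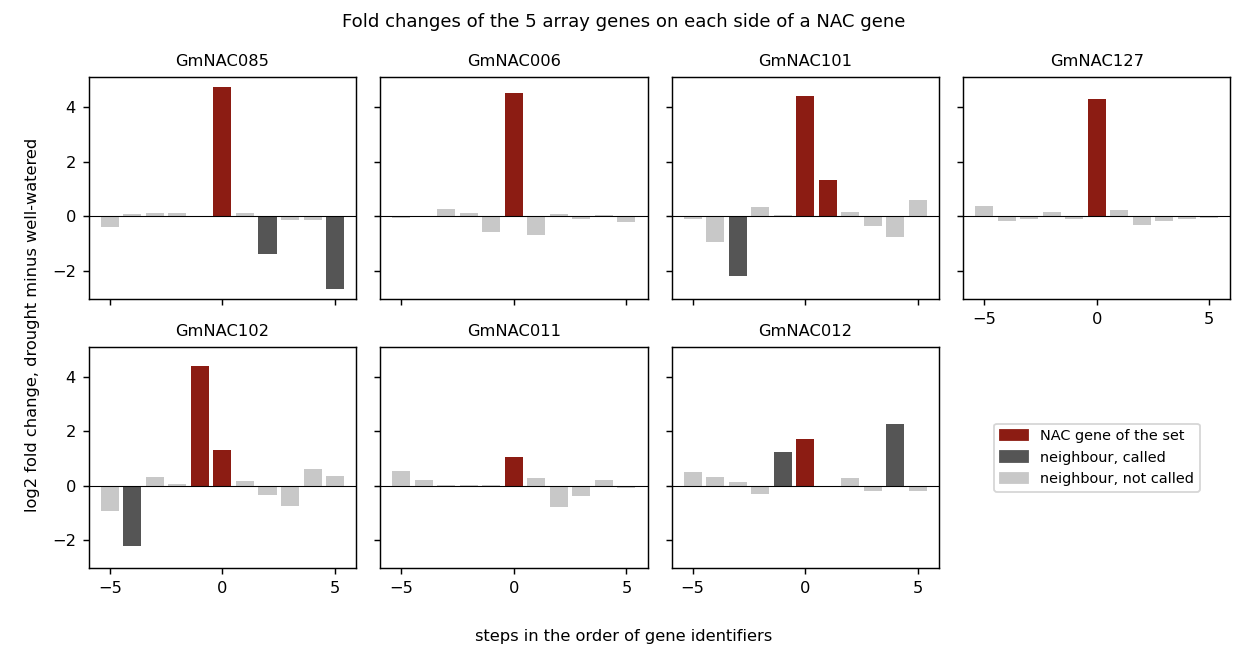
Log2 fold change (drought minus well-watered) of the 5 array genes on each side of the 7 NAC genes, by steps in the order of gene identifiers, with the NAC genes in red, called neighbours in dark grey and other neighbours in light grey. The median of the 60 neighbours is 0.0028, and 55 of them were not called, a group that includes changes of less than 2-fold. GmNAC101 and GmNAC102 appear side by side in each other's panels.

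The plants within a treatment did not rank alike for all 7 genes. Drought plant 12 held the highest value of the drought plants for 5 of the 7 genes, while GmNAC085 was highest in plant 11 and GmNAC127 in plant 13. Over all 66184 genes plant 12 was the highest drought plant for 29.7%, and over the 3295 genes called higher for 31.1%. Of the other 16 raised NAC genes of the study's R2 list, 7, or 43.8%, were highest in plant 12 and 9, or 56.2%, in plant 13. Plant 13 was the highest drought plant for 40.2% of all genes and for 55.1% of those called higher. GmNAC127 ran the other way, with plant 12 as the lowest of the drought plants. The same was found for 6 of the other 16 raised NAC genes of the study's R2 list, namely GmNAC046, GmNAC062, GmNAC121, GmNAC123, GmNAC144 and the NAC-like gene Glyma19g28480. Over the 3295 genes called higher, plant 12 was the lowest drought plant for 30.9%, so that this share is near that of 6 of 16, or 37.5%.

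Among the well-watered plants, plant 1 had the highest value for GmNAC085, GmNAC101 and GmNAC127, plant 3 for GmNAC006, and plant 4 for GmNAC102, GmNAC011 and GmNAC012. For the other 16 raised NAC genes plant 1 was the highest in 11, or 68.8%. Over all genes plant 1 was the highest well-watered plant in 20.8%, and over genes called higher in 28.7%. For plant 3 these shares were 56.1% and 35.6%. The array of plant 1 had the lowest median of the 6 arrays, at -0.11, and that of plant 3 the highest, at 0.13. The part of array scaling in these ranks was not tested. The pooled SD within treatments was 0.066 for GmNAC012, which is smaller than that of all but 1.64% of genes, and 0.47 for GmNAC127, which is larger than that of 94.6% of genes. The median over the 7 genes was 0.242, close to the 0.240 of all genes.

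**Figure D3:**
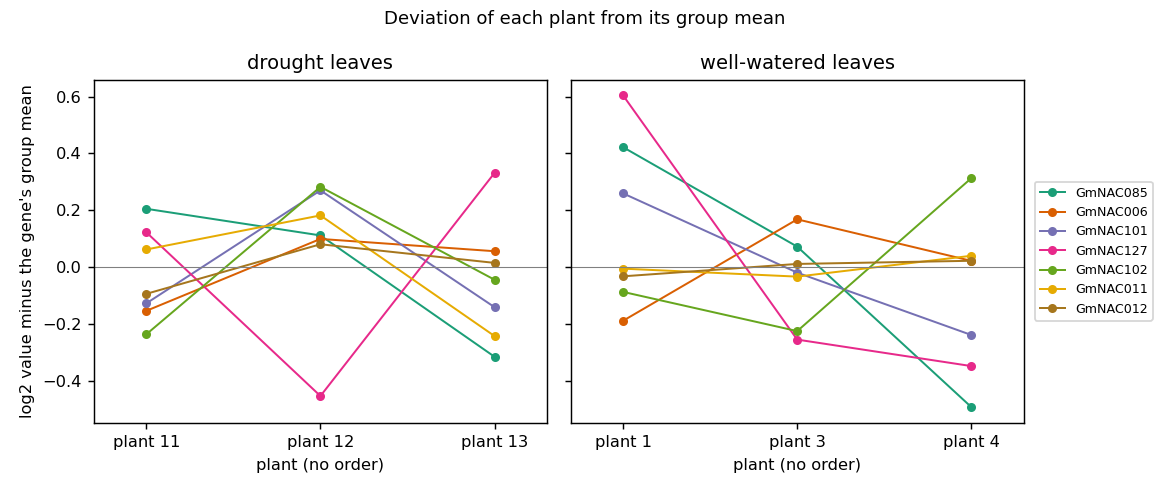
Log2 value of each plant minus the mean of its treatment group for the 7 NAC genes, drought plants left and well-watered plants right, with lines joining the plants of one gene. GmNAC127 is low in drought plant 12, where 5 of the other genes have their highest drought value, and GmNAC012 stays near 0 throughout.

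By the root mean square difference of log2 values over the 6 arrays, the gene closest to each of the 4 strongly raised NAC genes, of 53 other genes on the lists used here, was Glyma08g18800. It is similar to Arabidopsis NCED5, which cleaves carotenoids in the synthesis of abscisic acid, the main hormone of the drought response. Its values were 2.17, 2.22 and 2.14 in drought plants 11, 12 and 13, against -2.35, -2.14 and -2.24 in well-watered plants 1, 3 and 4. The difference was 0.11 for GmNAC006, with only 1 of all other array genes closer, 0.22 for GmNAC101, also with 1 closer, 0.37 for GmNAC085, with 4 closer, and 0.45 for GmNAC127, with 15 closer. This measure goes mostly by the size of the treatment difference, so it says that the values were alike and no more. Of the 3 other genes, GmNAC012 was closest to GmNAC044 (Glyma06g38440), at 0.059, with 1 array gene closer. GmNAC011 was closest to GmNAC035 (Glyma06g11970), at 0.14, with 49 closer, and GmNAC102 to GmNAC114 (Glyma15g08480), at 0.25, with 436 closer. Among the 7 themselves GmNAC006 and GmNAC101 were the most alike, at 0.26, and GmNAC085 and GmNAC011 the least, at 1.87.

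NAC genes outside the 7 went both ways. The study lists 23 NAC genes as changed by drought in leaves of the vegetative V6 stage, and 17 of these are not among the 7. In R2 drought leaves 7 of the 17 were higher and 2 were lower, while 8 passed in neither direction. These are 41.2% and 11.8%, against 4.98% and 4.63% of all genes, in a list chosen for changing in drought. The median log2 fold change of the 17 was 0.25, against 0.022 for all genes. The call of GmNAC076, at 1.06, was lost without drought plant 12 or well-watered plant 4, and with the methods' t-test. The 13 listed as raised at V6 held 7 that were higher and none that was lower at R2, and the 4 listed as lowered held 2 that were lower and none that was higher. Of the 7 genes of this account, 6 are on that list, GmNAC127 being the exception. GmNAC102 is listed there as lowered at V6, opposite to its difference in R2 leaves, and the other 5 as raised. The study's R2 list gives the V6 response of GmNAC102 as unchanged, so its lists differ on this gene. By the study's account, the V6 leaves were taken at another leaf position, and drought left more water in them than in R2 leaves. Stage and these differences cannot be told apart.

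Among the other NAC genes of the study's lists, the rises nearest in size to the 4 strongly raised genes were those of GmNAC092 (Glyma12g35000) and GmNAC038 (Glyma06g15990). GmNAC092 had values of 1.81, 2.41 and 2.19 in drought plants 11, 12 and 13, against -1.81, -2.35 and -1.91 in well-watered plants 1, 3 and 4, and rose by 4.16 ± 0.22 on the log2 scale. GmNAC038 rose by 4.01 ± 0.21. In the other direction, GmNAC057 (Glyma08g08010) had values of -1.61, -1.17 and -1.02 in drought plants 11, 12 and 13, against 1.02, 1.03 and 1.75 in well-watered plants 1, 3 and 4. It fell by 2.53 ± 0.24, and GmNAC130 (Glyma17g00650) fell by 1.07 ± 0.20, a call lost on leaving out well-watered plant 1 and with array weights. The closest listed gene to GmNAC011, GmNAC035, stood 0.95 ± 0.16 higher on the log2 scale, under the 2-fold line, and of the alternatives run only leaving out drought plant 11 brought it over that line. The study's other list, of 27 NAC genes changed in R2 leaves, was drawn from these arrays and holds all 7 genes. Of its other 20 genes 16 were higher and 4 lower, which is no independent evidence of their direction.

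A last group, not chosen by expression values, was the 5 NAC genes found by their descriptions on chromosome 1, the chromosome searched. In drought leaves 2 of them were higher, or 40%, none was lower and 3 were not called. Their median log2 fold change was 0.84. Over all genes 4.98% were higher and 4.63% lower, with a median of 0.022. These 5 genes of 1 chromosome give no share for the NAC family, and the study's V6 and R2 lists hold none of them. Glyma01g06150, similar to Arabidopsis NAP, a NAC factor that promotes leaf senescence, had values of 0.19, 0.59 and 1.29 in drought plants 11, 12 and 13, against -0.19, -0.66 and -0.67 in well-watered plants 1, 3 and 4. It rose by 1.19 ± 0.27 on the log2 scale (limma, adjusted p = 0.0114). Leaving out drought plant 13 brought this to 0.89, and the call was lost. Glyma01g37310, similar to VND1, a regulator of xylem vessel formation, rose by 1.22 ± 0.23, which became 0.98, no longer called, when well-watered plant 4 was left out. The methods' t-test called neither. The log2 fold changes of the 3 others were 0.84 for Glyma01g22510, similar to ANAC008, which acts in the response to DNA damage, 0.18 for Glyma01g05680, similar to ANAC009, and 0.00055 for Glyma01g00880, similar to ANAC099. None of the 5 reached the size of the 4 strongly raised genes.

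**Figure D4:**
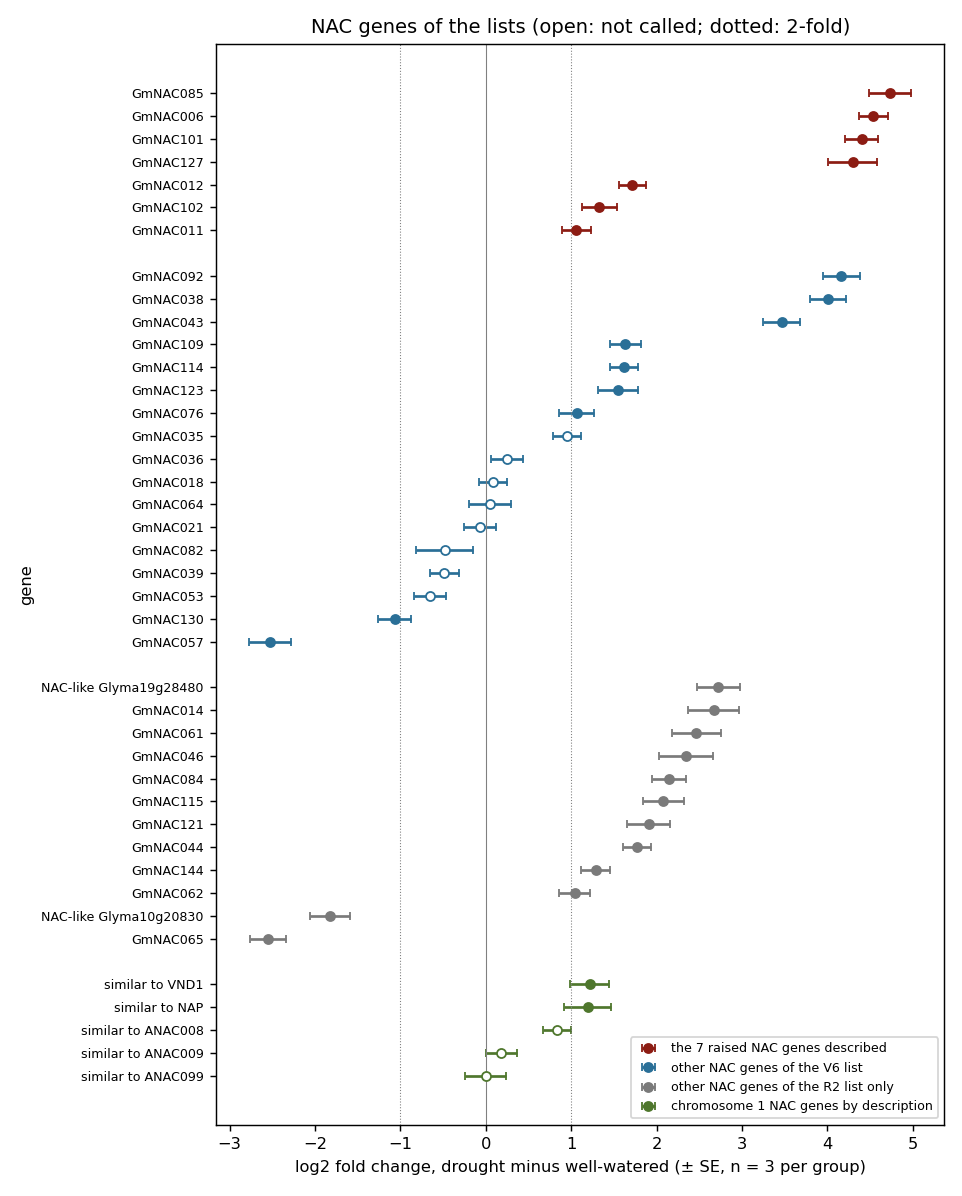
Log2 fold change (drought minus well-watered) ± SE (n = 3 per group) of the 7 NAC genes, of the other NAC genes of the study's V6 and R2 lists and of 5 chromosome 1 NAC genes found by description, with filled points called and open points not called. The 7 genes span 1.06 to 4.74, and the other V6 list genes span -2.53 to 4.16.

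Abscisic acid induces many drought-responsive NAC genes in Arabidopsis, and in the same leaves most listed genes of abscisic acid synthesis and signalling were higher. The list has 14 genes, taken from the study's V6 results. In drought leaves 11 of them were higher, or 78.6%, and none was lower, and their median log2 fold change was 2.97. The shares over all genes were 4.98% higher and 4.63% lower, with a median of 0.022. The list was chosen for changing in drought, in V6 leaves, so a share above that of all genes is partly built in. Its largest rise was 5.50 ± 0.26, for Glyma15g40070, similar to NCED3 of the same synthesis step. Next was Glyma06g17610, similar to HVA22D, at 5.39 ± 0.23. The call of Glyma14g04950, similar to AAO3, at 1.07, was lost with quantile normalization, with array weights and without drought plant 13. Glyma09g00460, similar to ABA3, at 0.99, was not called, but was called higher without drought plant 11 or well-watered plant 3. Glyma08g18800, the closest in values to the 4 strongly raised NAC genes, rose by 4.42 ± 0.16. Of 3 genes that mark leaf senescence in the study, GmSGR1 and GmSGR2, which act in chlorophyll breakdown, rose by 1.07 ± 0.21 and 2.81 ± 0.21. GmSGR1 was no longer called on leaving out drought plant 12 or well-watered plant 4, or with the methods' t-test. GmSARK, at 0.61 ± 0.29, did not pass. The photosynthesis genes found by description on chromosome 1 were Glyma01g28810, similar to the light-harvesting gene LHCB4.2, and Glyma01g38750, similar to PSBO2 of the oxygen-evolving complex. Their log2 fold changes were -0.81 ± 0.17 and -0.95 ± 0.16, and neither reached 2-fold, although Glyma01g38750 was called lower without drought plant 12. Of the 3 senescence genes 2 were thus higher by the criteria above, against 4.98% of all genes, and the call of GmSGR1 depended on the setting. Their part in the NAC values was not tested. Because the values are centred per gene, the presence of leaf transcripts as such could not be checked.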

How the data were processed

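Total RNA of 1 leaf from each of 6 plants was hybridised to 6 arrays. The authors obtained gene-level log2 values by RMA (Affymetrix Expression Console, normalization off) and then scaled the arrays to their upper quartile in GeneSpring. The deposited log2 values are also centred on each gene's median over the arrays, as the values themselves show (largest absolute median 5e-07). Absolute signal is lost, so no filter on dim probe sets could be run. A second deposited table holds the authors' own fold changes and p-values, of which none was used. It supplied only the gene identifier of each probe set.

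Treatments were compared by limma 3.58.1 under R 4.3.3 (lmFit and eBayes, with treatment as the only term), with p-values adjusted by Benjamini-Hochberg over 66184 probe sets. The procedure was also run on simulated data with independent probe sets and plants. Those data held no pot or array effect, so they cannot show how the p-values behave under either. SEs of single genes are from the limma fit, which draws each gene's variance toward that of all genes. They can thus be larger or smaller than the spread of that gene's own plants gives. SEs of the distance between 2 genes are from the spread over plants alone. Genes were called at an adjusted p under 0.05 and at least 2-fold. The labels leave unsaid which plants grew in one pot. Pot and treatment therefore cannot be told apart, p-values may measure the spread within a pot, and the number of arrays limits the precision.

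The genes, lists and tests were chosen with earlier results of these data known. Named were the 7 genes, listed NAC genes within 10 identifiers, the largest called changes of the V6 NAC and abscisic acid lists, the chromosome 1 NAC, senescence and photosynthesis genes, called neighbours, and the closest listed gene of each. None of the array's identifiers (Glyma1 annotation) matched the 59048 RefSeq genes of assembly Glycine_max_v4.0, where 2 of the 7 names, GmNAC085 and NAC012, occur on the same chromosome, and no sequence is shown. None of the probe sets of the 7 genes shared all its values with another, but near-identical gene copies could still share signal.

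Besides leaving out each array in turn, the alternatives were the methods' t-test, dropping the fold criterion, weighting arrays by quality, quantile or median scaling of arrays, counting probe sets with equal values once, a wider window of neighbours and group medians. The weights were uneven, at 0.48, 0.34 and 3.96 for well-watered plants 1, 3 and 4. They were 1.11, 1.32 and 1.06 for drought plants 11, 12 and 13.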

Additional observations from a re-analysis of the deposited data

How the results depend on the processing

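No paired analysis was possible because no plant number occurs in both treatments. Each of the 7 NAC genes stayed higher in drought under all 10 alternatives run on its fold change. Since no gene had overlapping groups, leaving out an array, weighting arrays or taking group medians could not have reversed this. With quantile normalization the log2 fold changes of GmNAC006 and GmNAC101 were 4.18 and 4.09, and the median over the 7 genes was 4.00, against 4.30 as reported. The other 68 of 70 values moved by less than 1 SD. Dropping the fold criterion gave 6589 higher and 6583 lower genes, with 6 neighbours lower, and the methods' t-test found 2041 genes lower and 1 neighbour higher. Array weights left 1 gene of the V6 NAC list lower. Leaving out 1 array at a time gave 1 to 2 genes of that list lower and 1 to 2 neighbours higher, the single ones without well-watered plant 1. With 10 identifiers on each side of the 7 genes, 4 of 120 neighbours were higher and 5 lower. The filter on dim probe sets was not run, as the values hold no absolute signal. No scaling moved the median of all genes by more than 0.1 on the log2 scale.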
